A study of Caenorhabditis elegans with 3 samples.

Results

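The regions described here are the 539 peaks that LEM-2 chromatin immunoprecipitation followed by sequencing (ChIP-seq) gave on chromosome II of *C. elegans* embryos. They were taken as every line of the LEM-2 peak list that names this chromosome, 539 of 2932 lines in all, with no further selection. The list came from 1 library, made from mixed-stage embryos of the wild-type strain N2 with the antibody SDQ3891 against LEM-2. A second library from N2 mixed-stage embryos, made with the non-specific immunoglobulin AB46540 (control IgG), gave 64 peaks on the same chromosome of 415 in all, and served as background. Whole embryos were used, so each list blends all cell types of the embryo at several stages. Both antibodies had 1 library only, and those libraries came from different extracts, so a difference between the lists has no replicate error and antibody and extract cannot be told apart.

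LEM-2 spans the inner nuclear membrane. It carries a LEM domain, which binds the chromatin protein BAF-1, and it depends on the nuclear lamina to stay at the membrane, so DNA recovered with it is DNA that lay close to the nuclear periphery when the embryos were fixed. In animal cells such DNA is generally gene-poor, repeat-rich and weakly transcribed. *C. elegans* chromosomes are holocentric, with no single centromere, and their outer parts are called arms because they recombine more in meiosis and hold more repeats than the centre. The question put to chromosome II was how the LEM-2 regions are laid out along its 2 arms and its centre, and whether the arms are alike.

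On chromosome II the LEM-2 regions formed 2 outer blocks around a nearly empty middle. Arms were taken as the outer 4 Mb at each end, and the centre as the 7249135 bp between them. The left arm held 231 regions, the right arm 294 and the centre 14, which accounts for all 539. In covered sequence this was 405 kb on the left arm, 507 kb on the right arm and 24.5 kb in the centre. Occupancy, the percentage of bases inside called regions, was thus 10.1% on the left arm, 12.7% on the right arm and 0.338% in the centre. The arms together held 97.4% of all LEM-2 bases on the chromosome, although they make up 52.5% of its length. The width of 4 Mb is the extent that the study describes for LEM-2 domains, so it is not independent of LEM-2 binding.

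The control IgG regions gave the background on the same chromosome. They covered 0.728% of the left arm, 0.920% of the right arm and 0.243% of the centre, from 22, 25 and 17 regions. The arms held 78.9% of the control bases. LEM-2 occupancy was 13.9 times that of the control on the left arm and 13.8 times on the right arm, but 1.39 times in the centre. The centre value depends on the arm width. With arms of 3 Mb the centre held 1.06% LEM-2 and 0.320% control IgG, a ratio of 3.30, and with arms of 5 Mb it held 0.0811% and 0.223%, a ratio of 0.364. The number of regions called depends on sequencing depth, which the lists do not give. In the study's own alignments the control IgG library had fewer reads than the LEM-2 library, so these ratios do not measure enrichment.

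The right arm held more LEM-2 regions than the left. Of the 525 arm regions, 44.0% were on the left (exact Clopper-Pearson 95% interval 39.7% to 48.4%), and of the arm bases 44.4%. The interval covers counting error only and treats regions as independent. Neighbouring regions lie in clusters, so it is too narrow. In the control list, 46.8% of the 47 arm regions were on the left (interval 32.1% to 61.9%), a range that includes the LEM-2 share. With 47 control regions this range is wide, and whether the LEM-2 imbalance goes beyond that of the background was not tested.

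**Figure D1:**
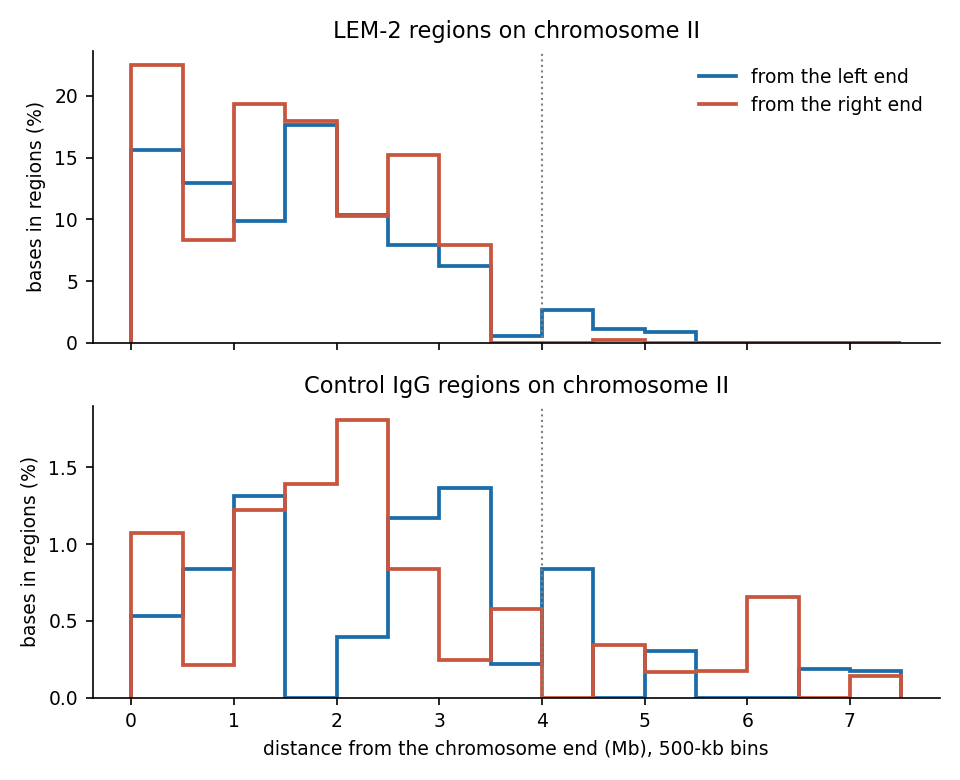
Percentage of bases inside called regions in 500-kb bins, against distance in Mb from the left end (blue) and from the right end (red) of chromosome II, for LEM-2 above and control IgG below, on different vertical scales. The dotted line marks the 4 Mb limit of the arms. From the right end LEM-2 goes from 7.92% in the bin at 3 to 3.5 Mb to 0% in the next, whereas from the left end low values of up to 2.68% continue to 5.5 Mb.

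The profile along each arm was uneven. In the outermost 500 kb, occupancy was 15.6% on the left, from 50 regions, and 22.5% on the right, from 64 regions. The next 500 kb held 12.9% on the left and 8.30% on the right, so the order of the arms was the opposite there. Between 1 and 1.5 Mb from the end the values were 9.90% and 19.3%. They came together between 1.5 and 2 Mb, at 17.6% and 17.9%, and between 2 and 2.5 Mb, at 10.4% and 10.3%. The right arm was again higher between 2.5 and 3 Mb, with 15.2% from 48 regions against 7.94% from 23. In the outer 3.5 Mb the left arm thus ranged from 6.19% to 17.6% and the right arm from 7.92% to 22.5%, and neither declined evenly from the end inward.

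Despite these differences the LEM-2 bases were placed at similar distances from both ends. On the left arm 50% of the arm bases lay within 1.56 Mb of the end, and on the right arm within 1.51 Mb. The corresponding distances for 90% were 2.89 Mb and 2.95 Mb. The outer 3 Mb held 91.7% of the left arm bases and 92.2% of the right arm bases. Among fixed 500-kb windows, the fullest on the left arm was 1500001 to 2000000, with 44 regions, an occupancy of 17.6% and no control IgG region. The emptiest there was 3500001 to 4000000, with 3 regions and 0.531%. On the right arm the fullest complete window was 13500001 to 14000000, with 58 regions and 20.6% against 0.217% for control IgG, and the emptiest complete one was 11500001 to 12000000, with 2 regions and 0.675%.

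The inner limits of the blocks were set by different rules. On the right, the limit was taken at the innermost region of the dense block, which began at 11990952, 3.26 Mb from the end, and it leaves out 1 lone region further in, at 10335599. The 100 kb outward of that point already held 13 regions and an occupancy of 15.5%, and the 500 kb outward of it held 52 regions and 15.5%. The inner 742 kb of the 4-Mb right arm were empty. Counted from 11990952 to the chromosome end, occupancy on the right was 15.6%. No such trimmed value was computed for the left, so the 15.6% is not comparable with the 10.1% of the whole left arm. On the left, the limit was the edge of the longest gap of the chromosome, where the innermost region ended at 5147073, and the 500 kb outward of it held 2 regions and 0.851%. The 1 Mb outward of the left limit held 13 regions and 2.33%, against 84 regions and 12.7% for the same length on the right. The left limit lies among scattered regions and the right one at a dense block, so the rules themselves favour this contrast. No dense-block limit was set on the left, where the bins at 2.5 to 3 Mb and 3 to 3.5 Mb held 7.94% and 6.19%. Taken from the other edge of the longest gap instead, the 1 Mb on the right held the lone region only, an occupancy of 0.124%, so the order of the sides depends on this choice. Occupancy on the left dropped from 6.19% at 3 to 3.5 Mb to 0.531% at 3.5 to 4 Mb, and scattered regions followed for more than 1 Mb. Control IgG occupancy in these left bins was 1.37% and 0.217%.

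The central gap in LEM-2 regions ran from 5147074 to 10335598. It was the longest gap of the chromosome, at 5.19 Mb, and took up 34.0% of the chromosome. Its midpoint, at 7741336, lay close to the chromosome midpoint at 7624567. The stretch was not free of called regions in the control, for which 12 regions lay inside it. They covered 11.7 kb, or 0.225% of the stretch, at 2.31 regions per Mb, compared with 5.17 control regions per Mb on the rest of the chromosome. The stretch was chosen as a gap between LEM-2 regions, so it holds none by definition, and the numbers in it do not compare the libraries. These also came from different extracts. Whether LEM-2 peaks could have been called there was not tested.

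A single LEM-2 region separated that stretch from the next empty one. It lay at 10335599 to 10336839, was 1241 bp long and had a score of 287.18. The authors' score equals −10 times log10 of the p-value that the peak caller gave, so a higher score stands for a smaller p-value, and it is used here within the LEM-2 list only. From this region to the right block, 10336840 to 11990951, there was another stretch of 1.65 Mb without LEM-2 regions, and it held 6 control IgG regions. Both stretches with the region between them spanned 6.84 Mb, or 44.9% of the chromosome, and held 1 LEM-2 and 18 control IgG regions. The low LEM-2 number there follows from the choice of the stretches.

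The centre held 14 LEM-2 regions, and 13 of them lay in its left 1.15 Mb. There, 7 regions between 4311055 and 4349139 formed a small group, the strongest of which, at 4330160 to 4332667, had a score of 263.48. The others in this group scored between 52.97 and 180.08. The strongest region of the centre stood apart from them, at 4640721 to 4645311, with a length of 4591 bp and a score of 1259.28. To its right followed 452 kb without LEM-2 regions, and then regions at 5096814 to 5098136 (score 186.63) and at 5144140 to 5147073 (score 250.07), the last before the long gap. None of the 14 overlapped a control IgG region. The median score of these regions was 106 (exact order-statistic interval 65.4 to 263), which overlaps the intervals of both arms.

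Spacing on the arms was tight. Over the whole chromosome the 538 gaps between neighbouring regions had a median of 4047 bp (exact order-statistic interval 3489 to 4984 bp), with quartiles of 1376.5 and 13786.75 bp. Gaps under 10 kb numbered 374, or 69.5%, while 11 were 100 kb or longer. The median gap was 4458 bp on the left arm (interval 3375 to 6455 bp) and 3728 bp on the right arm (interval 3114 to 4524 bp). The overlap of these intervals does not show that the medians are alike. In the centre the median was 46003 bp over 15 gaps. Each gap was assigned by its midpoint. On the left arm 64.3% of 230 gaps were under 10 kb, 33.5% were 10 to 100 kb and 5 were longer, whereas on the right arm the shares were 75.4% and 24.2% of 293 gaps, with 1 longer. Gaps of 1 to 10 kb made up 43.0% on the left and 57.0% on the right. The right arm numbers leave out the gap of 1.65 Mb from 10336840 to 11990951, which has its midpoint in the centre but reaches 742 kb into the right arm.

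**Figure D2:**
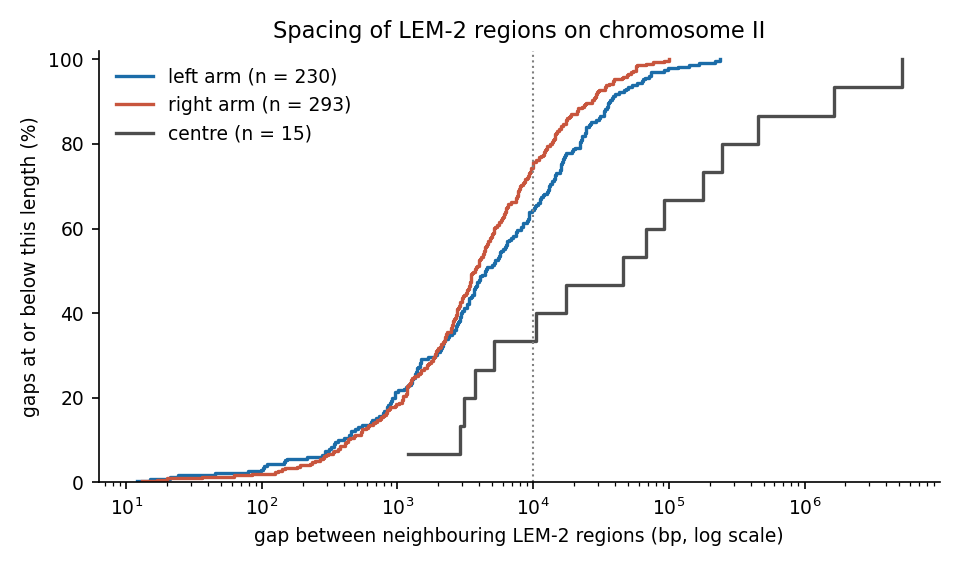
Cumulative percentage of gaps between neighbouring LEM-2 regions against gap length in bp on a log scale, for the left arm, the right arm and the centre of chromosome II. The dotted line marks 10 kb, below which lie 64.3% of left arm gaps, 75.4% of right arm gaps and 33.3% of centre gaps.

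The 5 longest gaps of the left arm all lay in its inner part. They were 239 kb from 3535702 to 3774903, 218 kb from 3775718 to 3994188, 168 kb from 2700125 to 2867916, 141 kb from 2919488 to 3060695 and 118 kb from 3291143 to 3408795. Of these gaps 4 held control IgG regions, 1 or 2 in each. The 5 longest gaps with their midpoint on the right arm were between 57.8 and 100.2 kb. The longest empty stretch of that arm was the 742 kb at its inner end, part of a gap counted with the centre. The longest of the 5 ran from 12872567 to 12972791, while the next, 91.4 kb from 14376930 to 14468333, lay in the outer 1 Mb.

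At the other end of the range, 103 gaps were under 1 kb, the shortest being 12 bp. Merging across these gaps left 436 regions, so the number of regions depends on where the peak caller ended one peak and began the next. Such short gaps made up 21.3% of left arm gaps and 18.4% of right arm gaps, and there were none in the centre.

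Joining regions across gaps under 10 kb gave 165 runs. Of these 70 held 1 region, and the other 95 held 469 of the 539 regions, with a median span of 13.8 kb. The right arm had 294 regions in 73 runs (4.03 regions per run), whereas the left arm had 231 regions in 83 runs (2.78 per run). Runs longer than 20 kb numbered 20 on the right arm and 14 on the left. The 5 longest were all on the right arm. The longest spanned 107 kb, from 13362416 to 13469574, with 23 regions that covered 41.1% of it. The next, 104 kb from 15084860 to 15189334, held 19 regions and ended 0.0598 Mb from the right end of the chromosome. The third, 92.0 kb from 14869806 to 14961756, held 22. On the left arm the longest run spanned 51.1 kb, from 1739461 to 1790593, with 12 regions that covered 55.2% of it. This order depended on the joining distance. Across gaps under 5 kb the longest runs of the left and right arm spanned 35.5 and 35.0 kb, and across gaps under 20 kb they spanned 128 and 170 kb. The number of runs depended on it too. Across gaps under 5 kb there were 113 on the left arm and 122 on the right, and across gaps under 20 kb 50 and 39. Regions per run were 2.04 and 2.41 at 5 kb, and 4.62 and 7.54 at 20 kb.

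**Figure D3:**
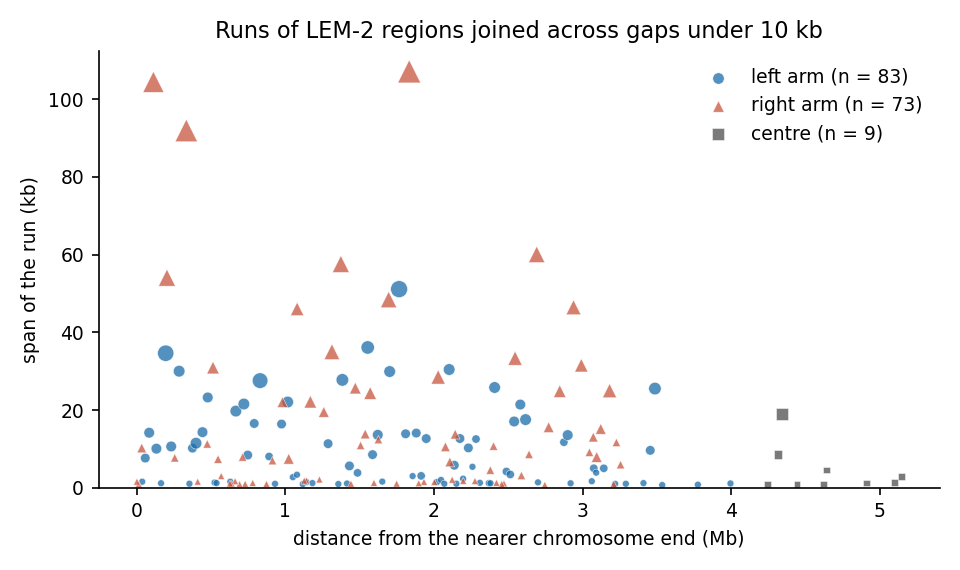
Span in kb of each run of LEM-2 regions, joined across gaps under 10 kb, against the distance of its midpoint from the nearer chromosome end in Mb. Larger symbols hold more regions, and single regions lie at the bottom. The 3 longest runs, between 92.0 and 107 kb, are all on the right arm, and the longest on the left arm spans 51.1 kb.

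Individual regions were of similar length on both arms. The median over the chromosome was 1376 bp (exact order-statistic interval 1298 to 1458 bp), with a range of 661 to 7589 bp. It was 1399 bp on the left arm (interval 1285 to 1547 bp) and 1367.5 bp on the right arm (interval 1283 to 1463 bp), which overlap almost wholly. Regions among the longest 10.0% of the whole LEM-2 list (2860 bp or longer) numbered 25 on the left arm, 37 on the right arm and 2 in the centre, together 11.9% of the 539.

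Median scores were also close. They were 87.4 on the left arm (exact order-statistic interval 81.0 to 94.3) and 93.5 on the right arm (interval 85.7 to 104), and the chromosome median of 91.18 was near the 91.195 of the whole list. The highest scores were more often on the right arm, which also held more regions. The highest score on the left arm was 437.76, for a region at 2896385 to 2899306. Above it were 12 of the 294 regions on the right arm and 1 in the centre, and by this choice of level none on the left. Among the 20 highest scores of the chromosome 16 were on the right arm, 3 on the left arm and 1 in the centre. Of the 50 highest, 34 were on the right arm and 12 on the left, and of the 100 highest 62 and 32. For comparison, the right arm held 294 and the left arm 231 of all 539 regions. Regions in the top 10.0% of scores of the whole list (243 or more) made up 5.19% of left arm regions (12 of 231, exact Clopper-Pearson interval 2.71% to 8.90%) and 11.2% of right arm regions (33 of 294, interval 7.85% to 15.4%). These intervals overlap. In the centre 4 of 14 regions passed the same level (28.6%, interval 8.39% to 58.1%).

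The highest score of the chromosome, 1575.39, belonged to a region of 6275 bp at 13980926 to 13987200, which was also the fourth longest. The next, 1366.42, lay 37.9 kb to its left, at 13937943 to 13943002. The others were at 12843197 to 12846434 (1311.52), at 4640721 to 4645311 in the centre (1259.28) and at 15094656 to 15097910 (1197.66). The last of these shared 2026 bp of its 3255 bp with a control IgG region, and the other 4 had no control overlap. At the lower end, 88 regions (16.3%) scored under 60, and the lowest scored 50.04 at 965881 to 967604 and 50.05 at 3218133 to 3219152. The list holds no peaks below about this level, so weaker binding is not visible in it.

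**Figure D4:**
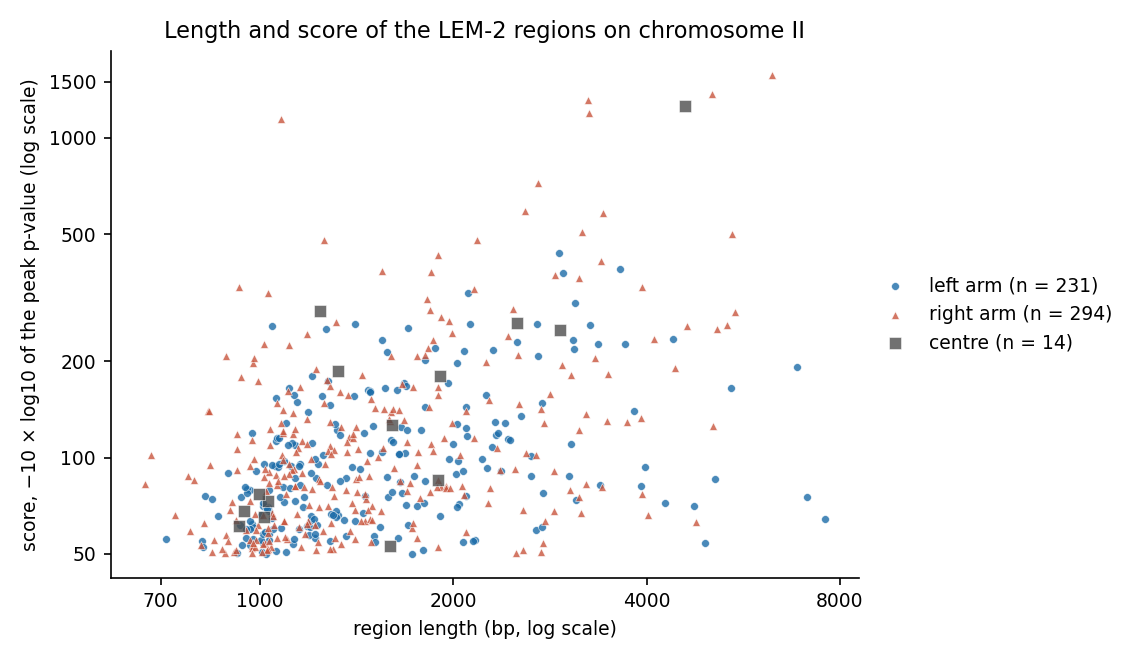
Score against length in bp of each of the 539 LEM-2 regions on chromosome II, both on log scales, by arm and centre. Longer regions tend to score higher, but the longest, of 7589 bp on the left arm, scored 64.43. Scores above 437.76, the highest of the left arm, occur on the right arm and once in the centre.

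Length and score were related only in part. Spearman's rho between them was 0.42 across the 539 regions, 0.44 on the left arm and 0.40 on the right arm, given as a description because regions of 1 library are not independent and a longer peak offers more reads to the test. The longest region, 7589 bp at 1744125 to 1751713, scored 64.43 and ranked 415 of 539 by score. The second longest, 7099 bp at 1281512 to 1288610, scored 75.37 and ranked 354. Both are on the left arm, and neither overlapped control IgG. The third, 6849 bp at 712174 to 719022, scored 192.57 and shared 1407 bp with the control. The fifth, 5495 bp at 13390182 to 13395676, scored 285.09 and lies inside the longest run. Between the scores of neighbouring regions rho was 0.02 over 538 pairs.

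The regions closest to the ends were moderate in both measures. The outermost on the left began at 35653, was 1577 bp long and scored 86.73. The outermost on the right, 1589 bp and a score of 132.18, ended at 15249135. That position is also the chromosome length used here, the largest end in either list, so distances on the right are counted from this region. A control IgG region covered the first bases of the left end, up to 904, where no LEM-2 region was called.

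The share of LEM-2 regions that coincided with control regions was close to that of the whole list. It is limited by the short control list, with 64 control regions against 539 LEM-2 regions. Of the 539 LEM-2 regions, 20 (3.71%, exact Clopper-Pearson interval 2.28% to 5.67%) overlapped a control IgG region by at least 1 bp, compared with 3.58% over the whole LEM-2 list. These were 7 on the left arm, 13 on the right arm and 0 of 14 in the centre. In the other direction, 20 of the 64 control regions (31.3%, interval 20.2% to 44.1%) overlapped LEM-2, compared with 25.8% over the whole control list. On the arms these were 7 of 22 on the left (31.8%) and 13 of 25 on the right (52.0%). LEM-2 regions cover 10.1% and 12.7% of all bases there, but that coverage holds for single bases. A control region is many bases long and counts when any of them is shared. Random placement would thus also tend to give shares above the coverage. Whether the shares on the arms go beyond random placement was not tested. The whole-list shares lie within the intervals of both chromosome II shares.

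The 20 shared regions had a median length of 1961.5 bp and a median score of 130, compared with 1362 bp and 89.8 for the other 519. A longer region touches a control region more easily, and longer regions tended to score higher. Whether this accounts for the differences was not tested. Their scores ranged from 51.78 to 1197.66. The longest shared stretches were 2101 bp at 13419940 to 13424044, inside the longest run, then the 2026 bp named above and 1785 bp at 674429 to 676529. The longest control regions of the chromosome were not among them. They lay at 12988447 to 12992649 (4203 bp), 13343522 to 13347473 (3952 bp) and 1235487 to 1238664 (3178 bp), all on arms and all without LEM-2 overlap. The part of shared background in the LEM-2 regions was not tested, since this needs reads.

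The other autosomes, measured in the same way, give the range in which chromosome II lies. The left share of arm bases was 44.4% on II and between 31.4% on V and 76.7% on IV elsewhere, with 55.8% on I and 46.8% on III. The longest gap took up 34.0% of II, compared with 17.4% to 25.7% of the others. In length it was 5.19 Mb on II and between 2.57 and 5.37 Mb on the others, the longest being on V. The highest score on the left arm was 437.76 on II and between 797.63 and 3194.58 on the other autosomes. The highest score on the right arm, 1575.39 on II, was between 239.8 and 3100 on the others. That 3100, on I, is also the highest score on the left arm of III, and whether this round value is a measured score was not tested. With 1 library these differences between chromosomes were not tested.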

How the data were processed

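The lists were made by the authors from sequenced ChIP libraries of N2 mixed-stage embryos. BWA is named in the submitters' processing notes, without a version, and the deposited peak names show that the peaks were called with MACS. Its version and settings are not given in the sources used here. Each deposited line gives the position of a peak with its name and score, the score being −10 times log10 of the peak p-value. Both antibodies share an input library in the labels, and input data were not analysed here. Extraction and immunoprecipitation protocol versions differed between the antibodies. The study describes reads aligned to ce4 (WS170) for its own profiles but not the build of these lists, so positions are as deposited, with 1-based starts. Without a genome of an established build, no gene or sequence was assigned.

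In the control list 6 starts below 0, 1 of them on chromosome II, were set to base 1. No regions of a list overlapped. Occupancy, gaps, runs and overlaps were computed in Python 3.11 with numpy 2.4.6 and scipy 1.17.1, plotted with matplotlib 3.10.9 and tested on simulated data. Regions were placed by midpoint and bases by position. Shares carry exact Clopper-Pearson and medians exact order-statistic 95% intervals, which cover counting error only, and the read depth behind the scores is not in the lists. With 1 library per antibody no p-value was computed. The regions, the measures and the named positions (the longest and highest-scoring regions, gaps, runs and overlaps, the outermost and border regions, and the fullest and emptiest windows) were chosen with earlier results of these data known. The highest-scoring region of the left arm, the lowest-scoring regions, the edge stretches and the regions of the centre were named after their values were seen. Alternatives were other arm widths, the higher-scoring 50% of each list, merging within 1 kb, region numbers in place of bases, leaving out LEM-2 regions with control overlap and other overlap rules. Joining distances of 5 and 20 kb, the centre ratio at other arm widths and the right limit at the edge of the longest gap were chosen after seeing the data.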

Additional observations from a re-analysis of the deposited data

How the results depend on the processing

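Of 77 alternative values for 20 results, 49 stayed within the 95% interval of the reported value, or within 1.5 times of it for numbers, occupancy and its ratio, the longest gap and runs. For the share of LEM-2 bases on the arms the interval used was that of region numbers, 95.7% to 98.6%. For the left share of arm bases it was 40.1% to 48.7%. An error of covered bases was not estimated, so for these shares the limits are a yardstick only. Among the 7 main results, 10 of 26 values moved. The share of LEM-2 bases on the arms, 97.4%, was 89.6% with arms of 3 Mb and 99.5% with arms of 5 Mb. Keeping the higher-scoring 50% of each list, which removes weak regions by construction, gave a median length of 1619 bp, a median score of 140.87 and a median gap of 9222 bp, and left 8 LEM-2 and 8 control IgG regions that overlapped. Merging within 1 kb gave a median length of 1583.5 bp and a median gap of 6285 bp. Requiring that the overlap fill at least 50% of a LEM-2 region left 12 of 20 regions, while all 20 control IgG regions met the same rule. The left share of arm bases stayed between 40.9% and 45.5% under all 6 of its alternatives. The longest gap was 5188525 bp under all 3 of its alternatives, but none of them could change it. The regions at its borders scored 250.07 and 287.18 and overlapped no control region, and merging closes gaps under 1 kb only. These 3 values count among the 49. Runs numbered 165 when joined across gaps under 10 kb, 245 under 5 kb and 96 under 20 kb. The ratio of LEM-2 to control IgG occupancy in the centre, 1.39, was 3.30 with arms of 3 Mb and 0.364 with arms of 5 Mb. Occupancy in the 1 Mb outward of the right limit was 12.7%, or 0.124% from the edge of the longest gap. With 1 library for each antibody, no replicate could be left out. No paired analysis was possible because there were no replicates to pair.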
